A study of Mus musculus with 10 samples.

Results

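Fc gamma receptors are the cell surface proteins through which leukocytes bind the Fc part of IgG, and 8 genes of this system were examined: Fcgr1, Fcgr2b, Fcgr3, Fcgr4, Fcer1g, Tyrobp, Syk and Fcgrt. They were chosen by gene name from the 36009 rows of the count file, each name matched 1 row, and all 8 were among the 16041 genes with enough counts to be tested. RNA came from 10 subcutaneous CT26 tumors, grown from a mouse colorectal carcinoma cell line in female BALB/c mice of wild-type (WT) genotype, whose age the labels do not give. The tumors were untreated when the sampled tissue was resected, and a hydrogel loaded with poly(I:C), a synthetic double-stranded RNA, was then placed on the residual tumor. The 6 responders (RS) were mice whose tumors regressed completely, and the 4 non-responders (NR) were mice whose tumors grew without delay. The experiment was performed once, each library came from a different tumor of the same transplanted line, and the comparison asks what differed before any treatment between tumors that would later respond or not. The p-values measure the spread between these tumors.

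In mice, Fcgr1, Fcgr3 and Fcgr4 encode activating receptors, which have little signaling capacity alone and pair with the common gamma chain encoded by Fcer1g. When IgG complexes crosslink them, Src family kinases phosphorylate the activation motif (ITAM) of that chain, Syk docks there and is activated, and phagocytosis, oxidative burst and cytokine release follow in macrophages and related cells. Fcgr2b is the inhibitory receptor, whose own motif (ITIM) recruits the lipid phosphatase SHIP-1, while Tyrobp (DAP12) is a second ITAM chain that serves other receptors, and Fcgrt is the neonatal Fc receptor, which rescues IgG and albumin from degradation inside cells.

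On the GRCm38 assembly, 4 of the 8 genes lay in a cluster on chromosome 1, with Fcgr2b at chr1:170958617-170976547 (minus strand), Fcgr4 at chr1:171018920-171029761 (plus strand), Fcgr3 at chr1:171051174-171064935 (minus strand) and Fcer1g at chr1:171229572-171234365 (minus strand). Fcgr1 was on chromosome 3 at chr3:96282909-96293969 (minus strand), Tyrobp at chr7:30413760-30417585 (plus strand), Fcgrt at chr7:45092990-45103851 (minus strand) and Syk at chr13:52583173-52648792 (plus strand). Fcgr3 and Fcgr2b are close relatives, and 233 stretches of 31 bases were found in transcripts of both, which was 13.4% of the stretches of Fcgr3 and 4.15% of those of Fcgr2b, so their counts may be split with some error. Fcgr1, Fcer1g and Tyrobp shared no such stretch with any other gene. Antisense genes covered 17.7% of the span of Fcgr2b (Gm38204) and 49.1% of that of Fcgrt (Gm45669), and the strand setting of the counting was not given in the sources used here.

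Promoter windows from RefSeq (GRCm38.p6, 250 bases before to 50 after a transcription start) existed for 7 of the 8 genes, and Tyrobp had none. They were searched on both strands for GAS (TTCNNNGAA, the interferon gamma-activated site), the core of the interferon-stimulated response element or ISRE (GAAA, any 2 bases, GAAA) and a core of the element bound by PU.1, a myeloid transcription factor (GAGGAAGT), motifs chosen after the expression values were seen. The windows of Fcgr1 and Fcgr4 are shown because they were the only ones among the 9 windows of these genes that held a match, and because these genes had the largest fold changes below. Capitals mark the matches, GAS in Fcgr1, and in Fcgr4 the ISRE core followed by the PU.1 core, which there reads on the opposite strand.
Fcgr1 promoter, chr3:96293920-96294219, minus strand: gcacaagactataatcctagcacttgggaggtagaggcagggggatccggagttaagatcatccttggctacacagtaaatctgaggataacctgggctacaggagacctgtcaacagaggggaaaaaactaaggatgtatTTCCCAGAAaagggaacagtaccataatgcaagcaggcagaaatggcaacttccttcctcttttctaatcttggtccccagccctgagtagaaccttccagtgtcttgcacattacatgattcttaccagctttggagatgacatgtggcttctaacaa
Fcgr4 promoter, chr1:171018676-171018975, plus strand: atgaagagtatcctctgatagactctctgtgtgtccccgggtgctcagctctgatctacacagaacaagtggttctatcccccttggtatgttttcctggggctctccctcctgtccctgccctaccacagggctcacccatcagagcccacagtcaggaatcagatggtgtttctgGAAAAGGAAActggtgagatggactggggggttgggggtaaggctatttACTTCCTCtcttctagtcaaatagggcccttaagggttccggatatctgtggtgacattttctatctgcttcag
The matches began 109 bases upstream of the start in Fcgr1, and 73 (ISRE core) and 24 bases (PU.1 core) upstream in Fcgr4. Over all 32851 windows of mouse genes, 8.30% held GAS, 3.44% the ISRE core and 3.20% the PU.1 core. The matches describe the letters in these windows, and binding was not measured.

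Responder libraries held 29065126 to 38042544 estimated counts and non-responder libraries 23374649 to 32986456. Fc receptor genes were well covered, with 498 to 22853 counts for each gene in each tumor. Among markers of cells that carry these receptors, 5 of 9 macrophage genes were called higher in responders (Adgre1, Cd68, C1qa, C1qb and C1qc), and the 9 summed to 2965 to 4385 CPM in responders against 2106 to 2806 CPM in non-responders. The rest were not called, with log2 fold changes of 0.24 (Csf1r), 0.07 (Cd14), 0.03 (Mertk) and -0.13 (Mrc1). Ptprc, which encodes the leukocyte surface protein CD45, ranged from 326 to 499 CPM in responders and from 181 to 307 CPM in non-responders. Monocyte markers summed to 112 to 167 against 59.8 to 108 CPM (1 of 3 called), NK cell markers to 45.2 to 109 against 15.5 to 52.1 CPM (0 of 5), mast cell markers to 39.6 to 155 against 19.9 to 46.8 CPM (1 of 4), neutrophil markers to 75.1 to 154 against 59.3 to 126 CPM (0 of 5, with Ly6g at no more than 1 count in any tumor) and B cell markers to 2.88 to 7.34 against 2.10 to 3.51 CPM (0 of 3). Of the 5 neutrophil genes tested, only Csf3r had a higher estimate in responders (log2 fold change 0.42), and the list median was -0.09. Markers of other tissue also differed, with T cell markers at 108 to 247 against 67.7 to 124 CPM (0 of 5 called, 4 at an unadjusted p under 0.05), skeletal muscle markers at 197 to 568 against 145 to 186 CPM (2 of 2 called) and adipocyte markers at 1.499 to 10.4 against 0.284 to 3.66 CPM (0 of 2 called, 2 at an unadjusted p under 0.05). Dendritic cell markers were mixed, at 34.4 to 43.0 against 31.1 to 36.5 CPM (1 of 5 called). Their log2 fold changes were 1.46 for Xcr1, the gene called, 0.61 for Clec9a, 0.01 for Flt3, -0.16 for Zbtb46 and -0.34 for Cd209a. The part of all these markers in the differences below was not tested. These are bulk samples, in which fewer cells of a type and less RNA per cell cannot be told apart. The labels name a colorectal carcinoma, and 5 of 7 epithelial markers were too low to test, with Epcam at no more than 19 counts. Those tested were Krt20, at 29.1 ± 9.80 CPM in responders and 52.9 ± 18.5 CPM in non-responders (log2 fold change -0.86, edgeR adjusted p = 0.0834), and Cdx2, at 0.564 ± 0.202 and 1.09 ± 0.431 CPM (log2 fold change -0.95, edgeR adjusted p = 0.0784).

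The activating receptor genes differed in how far they separated the groups. CPM is a count scaled to the total of its library after TMM normalization. Fcgr1, the high-affinity IgG receptor, stood at 25.7, 57.5, 53.1 and 40.7 CPM in non-responders 1 to 4, and its lowest, median and highest values in responders were 66.0, 77.7 and 104 CPM. Every responder was above every non-responder. The difference was 0.85 ± 0.21 on the log2 scale (SE, 6 against 4 tumors; edgeR quasi-likelihood test, adjusted p = 0.0372), with means of 79.9 ± 14.8 CPM (SD, n = 6) and 44.2 ± 14.3 CPM (SD, n = 4).

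Fcgr4, a receptor of intermediate affinity for IgG2a and IgG2b found on monocytes and macrophages, had the widest range of the 8 genes, 16-fold between its lowest and highest tumor. It stood at 20.1, 124, 104 and 54.1 CPM in non-responders 1 to 4, and at 136, 182 and 321 CPM in its lowest, median and highest responder. The groups did not overlap, although non-responder 2 came close to responder 4. The log2 fold change, 1.44 ± 0.42 (SE), was the largest of the 8 genes and ranked 104 among all 16041 genes, but it was not called by edgeR (adjusted p = 0.0580). The call depended on the tool, with an adjusted p of 0.0209 by DESeq2 and 0.0437 by limma-voom. Leaving out each tumor gave edgeR adjusted p of 0.0350 to 0.138, and only the fit without non-responder 2 called it.

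Fcgr3, the low-affinity activating receptor of macrophages, NK cells and neutrophils, was at 100, 177, 158 and 157 CPM in non-responders 1 to 4, and at 166, 204 and 264 CPM in the lowest, median and highest responder. Responder 4 fell below non-responder 2, and the other 5 responders were above every non-responder. Its log2 fold change was 0.48 ± 0.16 (SE; edgeR adjusted p = 0.0771). Inhibitory Fcgr2b gave nearly the same estimate, 0.44 ± 0.15 (SE; edgeR adjusted p = 0.0777), from values of 267, 420, 362 and 428 CPM in non-responders 1 to 4 and of 400, 494 and 639 CPM in the lowest, median and highest responder. Again only responder 4 lay within the range of the non-responders. Neither gene was called by edgeR, but DESeq2 called both (adjusted p = 0.0206 for Fcgr3 and 0.0207 for Fcgr2b), and edgeR called Fcgr3 without non-responder 2 (adjusted p = 0.0498) and Fcgr2b without responder 4 (adjusted p = 0.0486).

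Of the signaling genes, Fcer1g, the common gamma chain, was at 75.1, 138, 125 and 113 CPM in non-responders 1 to 4 and at 150, 179 and 248 CPM in the lowest, median and highest responder, and it rose by 0.71 ± 0.17 on the log2 scale (SE; edgeR adjusted p = 0.0372). Tyrobp was at 83.0, 114, 107 and 98.2 CPM in non-responders 1 to 4 and at 128, 139 and 190 CPM in the lowest, median and highest responder, a rise of 0.54 ± 0.12 (SE) with the smallest adjusted p of the 8 genes (edgeR, 0.0311). For these chains every responder was above every non-responder. Syk, the kinase that both chains recruit, was at 73.9, 98.6, 90.8 and 75.8 CPM in non-responders 1 to 4 and at 95.9, 117 and 165 CPM in the lowest, median and highest responder, and rose by 0.51 ± 0.14 (SE; edgeR adjusted p = 0.0451). Responder 4 was below non-responder 2 for Syk, and the other 5 responders were above all 4 non-responders.

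Fcgrt, the receptor that recycles IgG and does not signal through an ITAM chain, had the smallest difference. It was at 120, 148, 136 and 170 CPM in non-responders 1 to 4 and at 132, 164 and 186 CPM in the lowest, median and highest responder, so the groups overlapped over most of their range and only 2 of 6 responders were above every non-responder. Its log2 fold change was 0.19 ± 0.11 (SE; edgeR adjusted p = 0.268).

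**Figure D1:**
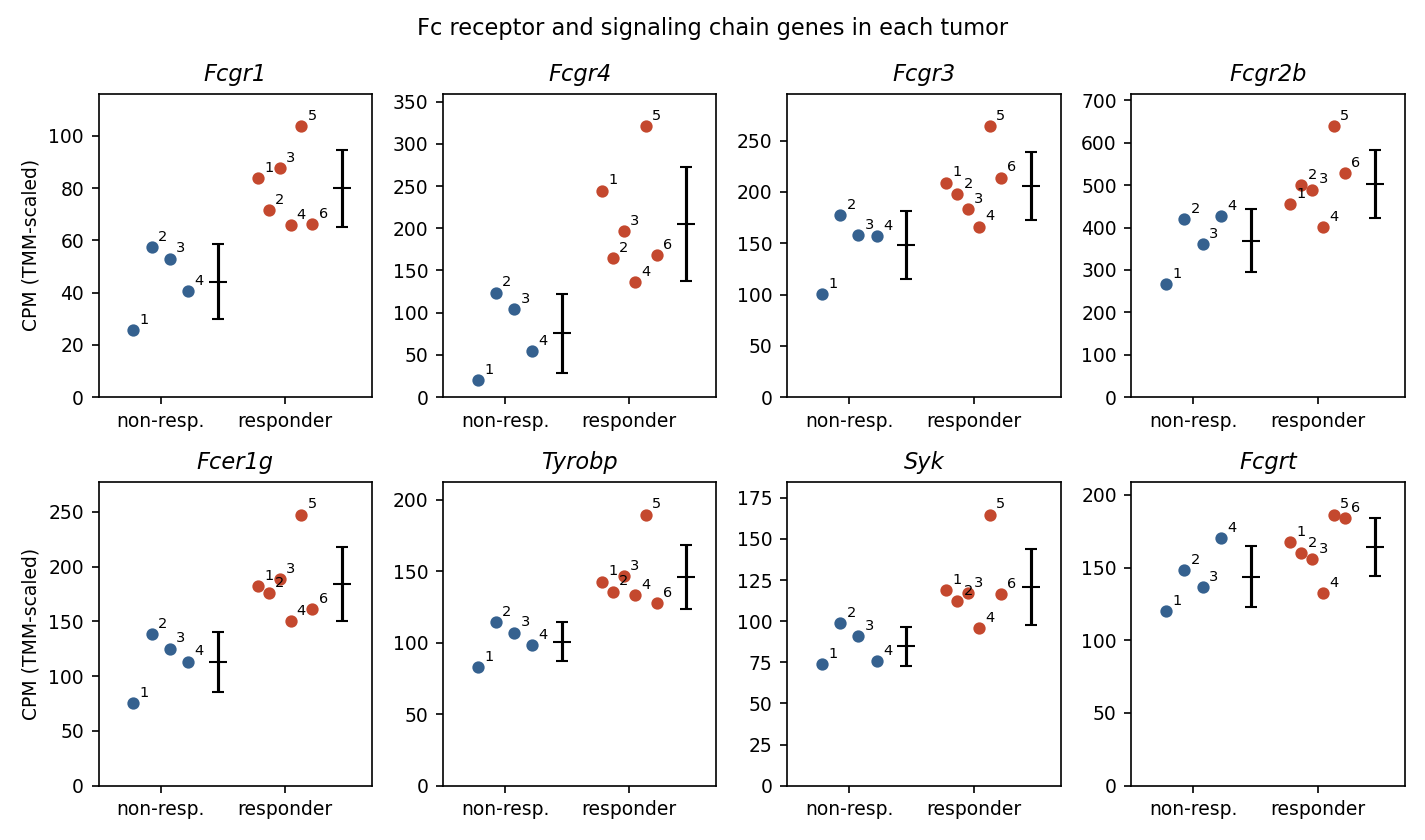
CPM of each gene in each tumor (linear axis from 0, one panel per gene), with non-responders in blue, responders in red, the tumor number beside each point and the mean ± SD as a black bar. No non-responder reaches the lowest responder for Fcgr1, Fcgr4, Fcer1g and Tyrobp, and the groups overlap for Fcgr3, Fcgr2b, Syk and Fcgrt.

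In all, 4 of the 8 genes (Fcgr1, Fcer1g, Tyrobp and Syk) were called, each higher in responders, where 8.06% of all genes tested were called in either direction and 4.71% were called higher. For 4 genes (Fcgr1, Fcgr4, Fcer1g and Tyrobp) every responder exceeded every non-responder, as was so for 5.84% of all genes. All 8 estimates were above 0 and their median log2 fold change was 0.52, against -0.01 over all genes. At an unadjusted p under 0.05 there were 7 of the 8 genes, with 29.1% of all genes below that value. The calls rested on the full set of tumors. None of the 8 was called without responder 2, responder 3, non-responder 1, non-responder 3 or non-responder 4, and Tyrobp alone was called without responder 1 or responder 5, while 7 or 8 of the genes had an unadjusted p under 0.05 in each of these fits. Calls over all genes fell too, from 1293 to 244, 17, 16, 366 and 0 in the fits that called none of the 8, in the order named. They fell to 553 without responder 1 and to 412 without responder 5. In these fits, 3654 to 4458 of all genes had an unadjusted p under 0.05, so the loss of calls was not particular to the 8 genes.

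**Figure D2:**
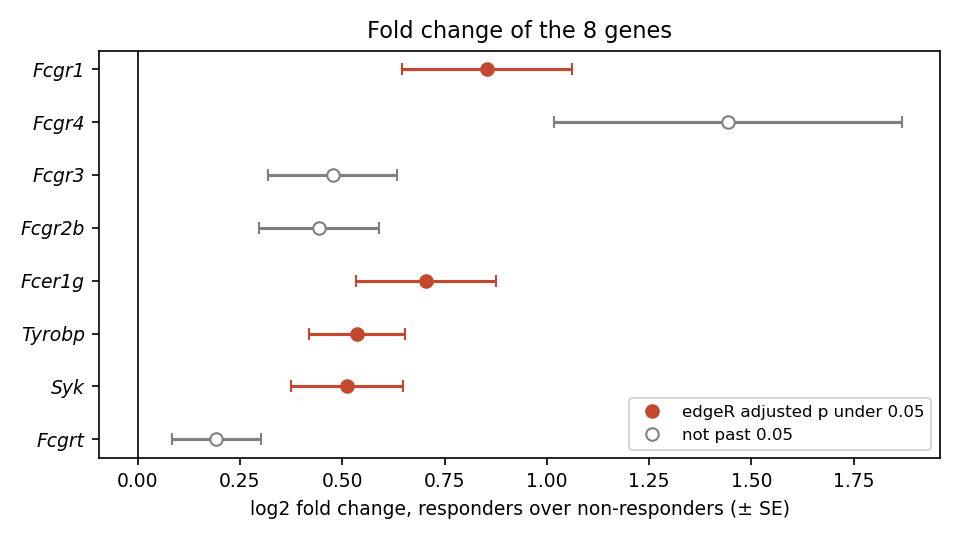
Log2 fold change of responders over non-responders for each gene (points) with its SE (bars), filled red where the edgeR adjusted p was under 0.05. Fcgr4 lies farthest from 0 at 1.44 with the widest error bar, and Fcgrt lies nearest at 0.19.

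The 8 genes varied together between tumors. All 8 genes had their lowest value in non-responder 1 and their highest in responder 5, while responder 4 was the lowest responder for 7 of them. The same tumors were at the ends for Ptprc, with 181 CPM in non-responder 1 and 499 CPM in responder 5. Over the 10 tumors, Pearson's r between pairs of these genes in log2 CPM ran from 0.63 (Tyrobp with Fcgrt, and Fcgr1 with Fcgrt) to 0.99 (Fcgr1 with Fcgr4, and Fcgr1 with Fcer1g). These are descriptions over 10 tumors that share library and leukocyte content.

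Per kilobase of transcript, a scale on which genes can be set beside each other, the order of the levels in responders was Fcgr2b (330 ± 52.8 CPM per kb; SD, n = 6), Fcer1g (271 ± 50.2), Tyrobp (251 ± 38.6), Fcgr4 (163 ± 53.9), Fcgr3 (155 ± 25.3), Fcgrt (138 ± 16.9), Fcgr1 (30.9 ± 5.71) and Syk (23.6 ± 4.51). Neighbors in this order overlapped in their ranges over the responders, except that Fcgrt (112 to 157) lay above Fcgr1 (25.5 to 40.1). In non-responders Fcgr2b was also the highest (243 ± 49.0 CPM per kb; SD, n = 4), and Fcgr4 (60.1 ± 37.6) came sixth, below Fcgr3 (112 ± 25.0) and Fcgrt (121 ± 17.8). These levels used the median length of the coding transcripts, and with the length of all exons joined, Fcgr2b moved from the highest place to the fifth, so its place depends on which transcripts were made.

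Next, the balance of activating to inhibitory receptor was compared within each tumor, as the ratio of the counts of Fcgr1, Fcgr3 or Fcgr4 to those of Fcgr2b. Fcgr4 counts were 0.075, 0.295, 0.288 and 0.126 of those of Fcgr2b in non-responders 1 to 4, and 0.537, 0.330, 0.401, 0.340, 0.502 and 0.318 in responders 1 to 6. Every responder had a higher ratio than every non-responder, and non-responders 2 and 3 were just below the lowest responders. The difference was 1.23 ± 0.50 on the log2 scale (SE), with geometric means of 0.396 and 0.169 (p = 0.00476 by an exact two-sided permutation test, which over 210 splits can go no lower; adjusted over the 3 ratios, p = 0.0143). When the ratio to Fcgr2b was taken for every gene tested, 0.355% of genes had groups that did not overlap in this direction. The exact permutation p of Fcgr4 adjusted over all genes was 0.0567. No gene had a lower adjusted value, so none passed by this measure. The value was shared with genes of larger p, such as Fcgrt (exact permutation p = 0.0143), and gives Fcgr4 no rank among them.

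The Fcgr1 ratio ran from 0.095 to 0.147 in non-responders and from 0.125 to 0.184 in responders, and 4 of the 6 responders were above every non-responder. The log2 difference was 0.45 ± 0.19 (SE; exact permutation test, p = 0.0286, or 0.0429 when adjusted over the 3 ratios and 0.0627 over all genes). It fell short of the threshold over the 3 ratios in 8 of the 10 comparisons that left out a tumor, and held only without responder 6 or non-responder 3, with differences between 0.35 (without non-responder 4) and 0.56. The Fcgr3 ratio was 0.410 in responders and 0.399 in non-responders (geometric means), a log2 difference of 0.04 ± 0.07 (SE; exact two-sided permutation p = 0.567) that turned to -0.0016 without non-responder 4.

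**Figure D3:**
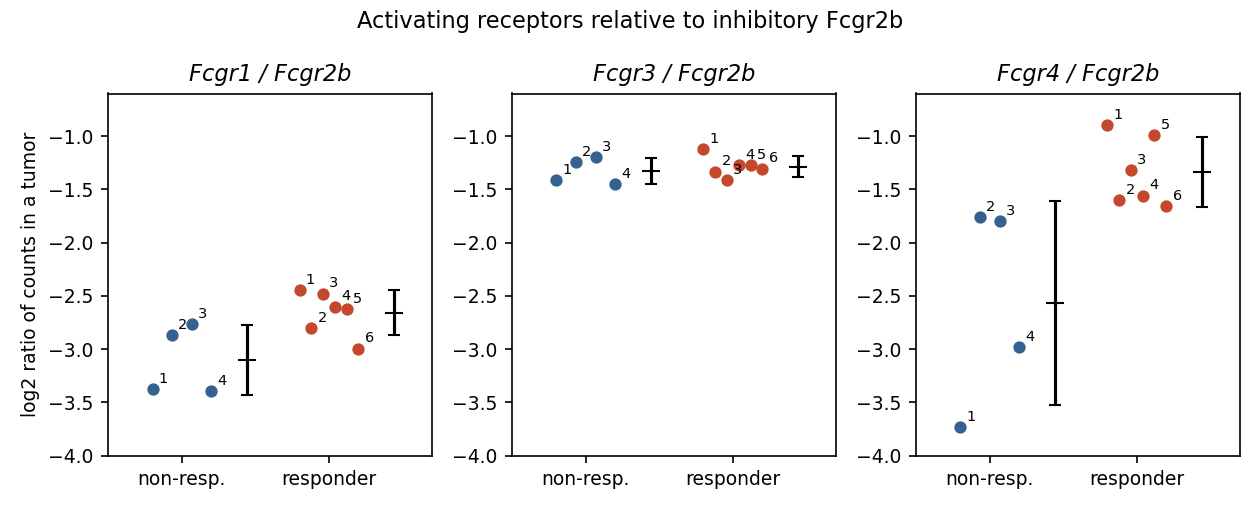
Log2 ratio of the counts of each activating receptor gene to those of inhibitory Fcgr2b in each tumor (points, with the tumor number), and mean ± SD (black bars) for non-responders (blue) and responders (red). The Fcgr4 ratio is higher in all 6 responders than in the 4 non-responders, which spread from -3.73 to -1.76, while the Fcgr3 ratio lies between -1.45 and -1.12 in every tumor.

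As shares of the summed per kilobase level of the 4 Fc gamma receptor genes, Fcgr4 made up 12.9% ± 6.36 (SD, 4 non-responders) and 23.6% ± 3.81 (SD, 6 responders). Fcgr2b made up 57.1% ± 6.10 and 48.9% ± 3.30, Fcgr3 26.0% ± 0.909 and 23% ± 1.18, and Fcgr1 3.91% ± 0.486 and 4.56% ± 0.482, in the same order. Fcgr4 took the lowest share in non-responder 1 (5.78%) and the highest in responder 1 (28.4%). These shares depend on the gene length used. With the length of all exons joined, an alternative added after the data were seen, Fcgr4 made up 24.3% in non-responders and 40.2% in responders, Fcgr2b 29.4% and 22%, Fcgr3 38.7% and 30.0% and Fcgr1 7.55% and 7.80%, so that Fcgr2b no longer had the largest share. By either length the mean share of Fcgr4 was higher and that of Fcgr2b lower in responders. The shares restate the ratios on another scale and were not tested again.

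Ptprc (edgeR adjusted p = 0.0413) and 5 of the 9 macrophage markers were themselves called higher in responders. Each gene was therefore also set against Ptprc and against the mean log2 CPM of the 9 markers within each tumor. That gave 8 ratios for each reference. Relative to Ptprc, Fcgr4 was higher in responders by 1.07 ± 0.44 (SE) and Fcgr1 by 0.28 ± 0.10 (SE) on the log2 scale. For both, all 6 responders lay above the 4 non-responders (exact two-sided permutation test, p = 0.00476; adjusted p = 0.0190 over the 8 ratios as planned, and 0.0123 over the ratios of all genes, added after the data were seen), as was so for 0.430% of all genes. Fcer1g differed by 0.11 ± 0.05 (SE; exact permutation p = 0.0190), with 3 of 6 responders above every non-responder. It did not pass the planned adjustment over the 8 ratios (0.0508) and passed over all genes (0.0299). The median gene was lower in responders by this measure, at -0.62, because Ptprc itself was higher there, so the adjustment over all genes also takes in the many genes that were lower by this measure.

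The 4 genes Fcgr3, Fcgr2b, Tyrobp and Syk differed relative to Ptprc by between -0.16 and -0.08, with exact permutation p from 0.214 to 0.233, and none of these differences passed. Fcgrt was lower relative to Ptprc in responders by -0.42 ± 0.17 (SE; exact permutation p = 0.0333), which did not pass the planned adjustment (0.0667) and passed over all genes (0.0478). By this measure the median gene was lower still, at -0.62. Without non-responder 1, the difference relative to Ptprc was 0.68 for Fcgr4 and 0.19 for Fcgr1, and neither passed the planned adjustment (0.0952 for each). The groups still did not overlap for either gene, and with a tumor left out the fewer splits make the smallest possible p larger. Each gene passed in 9 of the 10 comparisons that left out a tumor.

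Relative to the macrophage markers, Fcgr4 was higher in responders by 1.28 ± 0.54 (SE), again with no overlap (exact two-sided permutation test, p = 0.00476; adjusted p = 0.0381 over the 8 ratios and 0.0182 over all genes), as for 0.655% of all genes. The difference was 0.81 without non-responder 1. The planned adjusted p passed only without responder 6, with 0.0635 to 0.0952 when any other tumor was left out. Leaving out a tumor leaves fewer splits, and a gene that alone reached the smallest possible p could then not pass over the 8 ratios. These p-values therefore cannot show whether the difference hangs on single tumors, and the groups stayed apart in each comparison. Fcgr1 differed by 0.49 ± 0.20 (SE; exact permutation p = 0.0143) and Fcer1g by 0.32 ± 0.13 (SE; exact permutation p = 0.0190), each with 5 of 6 responders above every non-responder. Neither passed the planned adjustment (0.0508 for each), and both passed over all genes (0.0291 and 0.0355). The other 5 genes did not pass either adjustment. They ran from Fcgrt at -0.21 ± 0.10 (SE; exact permutation p = 0.0381; 0.0609 adjusted over all genes) to Tyrobp at 0.13 ± 0.06 (SE; exact permutation p = 0.0810; 0.114 adjusted over all genes). The median gene stood at -0.41 by this measure. Fitted the other way, with Ptprc or the macrophage markers as a covariate in edgeR, no gene was called, neither among the 8 nor elsewhere. An unadjusted p under 0.05 was reached by 845 genes (Ptprc) and 1010 genes (macrophage markers), and by none of the 8. These markers and the Fc receptor genes varied together across the tumors, and the part of cell content in the differences cannot be told apart from expression per cell.

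**Figure D4:**
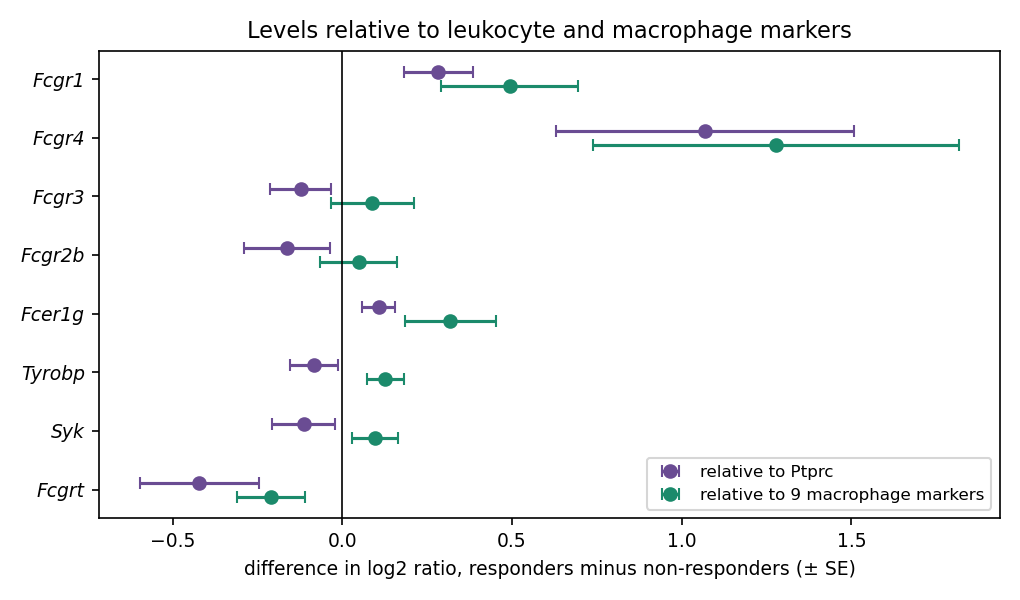
Difference between responders and non-responders in the log2 ratio of each gene to Ptprc (purple) or to the mean of 9 macrophage markers (green), with its SE (bars). Fcgr4 and Fcgr1 lie above 0 for both references, at 1.07 and 1.28 and at 0.28 and 0.49, and Fcgrt lies below 0 for both, at -0.42 and -0.21. The median of all genes, not drawn, was -0.62 and -0.41.

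The genes around the receptors were followed in lists of 81 genes, of which 75 were tested. Of these, 23 were called higher and 2 lower, 33.3% of the genes against the 8.06% given above for all genes, and the median log2 fold change was 0.38. Without responder 3, non-responder 1 or non-responder 4 none of the 75 was called, although 41 to 47 of them had an unadjusted p under 0.05. Over all genes these fits called 17, 16 and 0, with 3654 to 4106 at an unadjusted p under 0.05. The count in the lists was 8 or 9 without responder 1, 2 or 5 or non-responder 3, where 244 to 553 of all genes were called. It was 15 without responder 6, where 735 of all genes were called.

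Among 12 kinases and adaptors that act at the ITAM, 6 rose, among them the Src family kinases Lyn (log2 fold change 0.46) and Fyn (0.52) and the adaptors Lat2 (0.60), Lcp2 (0.67), which encodes SLP-76, and Grb2 (0.28). Lyn went from 157 ± 28.8 CPM in non-responders (SD, n = 4) to 217 ± 21.8 CPM in responders (SD, n = 6; edgeR adjusted p = 0.0391). Src, the widely expressed kinase of the same family, fell by 0.20 (edgeR adjusted p = 0.0445). Median log2 fold change of the list was 0.45.

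Downstream, 7 of 19 effectors rose and 1 fell. Those that rose were the phospholipase Plcg2 (0.40), the leukocyte PI3-kinase subunit Pik3cd (0.46), the kinase Btk (0.45), the exchange factor Vav1 (0.50), the GTPase Rac2 (0.70), Was (0.63), which encodes the actin regulator WASP, and Prkce (0.22). Plcg1, the broadly expressed relative of Plcg2, fell by 0.23 (edgeR adjusted p = 0.0283), and every responder was below every non-responder. The broadly expressed GTPases Rac1 (0.05) and Cdc42 (0.05) were at 526 and 437 CPM in responders and 508 and 423 CPM in non-responders, differences within the replicate spread (edgeR adjusted p = 0.567 and 0.535).

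The NADPH oxidase makes the oxidative burst of phagocytes, and 3 of its 5 subunit genes rose. Cybb, the catalytic subunit, went from 189 ± 64.1 CPM (SD, n = 4) to 328 ± 36.7 CPM (SD, n = 6), a log2 fold change of 0.80 (edgeR adjusted p = 0.0360). Ncf1 rose by 0.64 and Ncf4 by 0.58, whereas Cyba (0.14) did not pass. Of 8 genes that restrain the pathway, Inpp5d (0.38), which encodes SHIP-1, the phosphatase recruited by Fcgr2b, Ptpn6 (0.54), which encodes the phosphatase SHP-1, and Dok3 (0.67), an inhibitory adaptor, rose. Both activating and inhibitory components were among the genes called higher.

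Receptors that signal through Fcer1g or Tyrobp were mixed, with 3 of 15 tested genes called, all higher. These were Treml4 (0.74), Sirpb1a (0.96) and Klrk1 (1.19). Klrk1 encodes the activating receptor NKG2D and went from 19.6 ± 9.85 CPM (SD, 4 non-responders) to 44.7 ± 10.5 CPM (SD, 6 responders). Sirpb1a has a near-identical neighbor, Sirpb1b (0.78, edgeR adjusted p = 0.0644), so reads may be split between them. Trem2, a Tyrobp partner on macrophages, was at 9.17 ± 0.828 and 9.0 ± 1.68 CPM, with a log2 fold change of 0.03. The related chains Cd247 (0.77, edgeR adjusted p = 0.104) and Hcst (0.60, edgeR adjusted p = 0.154) were not called.

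Of 10 other Fc receptor genes, 7 were tested and none was called by edgeR, with 5 at an unadjusted p under 0.05. Those with the smallest p were Fcrl5, a receptor of B lineage cells, at 0.860 ± 0.669 CPM (SD, 4 non-responders) and 4.46 ± 3.28 CPM (SD, 6 responders; log2 fold change 2.39, edgeR adjusted p = 0.0503), and Fcrls, whose level was lower in responders (21.2 ± 5.52 against 35.1 ± 15.7 CPM; log2 fold change -0.73, edgeR adjusted p = 0.105). Immunoglobulin genes were listed too, and those for IgG encode the ligand of the receptors. Of 7 tested, 1 was called, the IgM heavy chain gene Ighm (0.87, 49.1 ± 8.75 against 26.7 ± 6.0 CPM; edgeR adjusted p = 0.0243), which is not an IgG gene. The IgG heavy chain genes were low and variable, with Ighg2b at 2.31 ± 1.48 and 1.60 ± 0.782 CPM, Ighg2c at 4.22 ± 5.04 and 2.29 ± 1.03 CPM and Ighg3 at 3.74 ± 6.82 and 0.910 ± 0.919 CPM in responders and non-responders. Ighg1 was not analysed here, and Ighg2c stands in the reference strain where BALB/c mice carry Ighg2a.

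**Figure D5:**
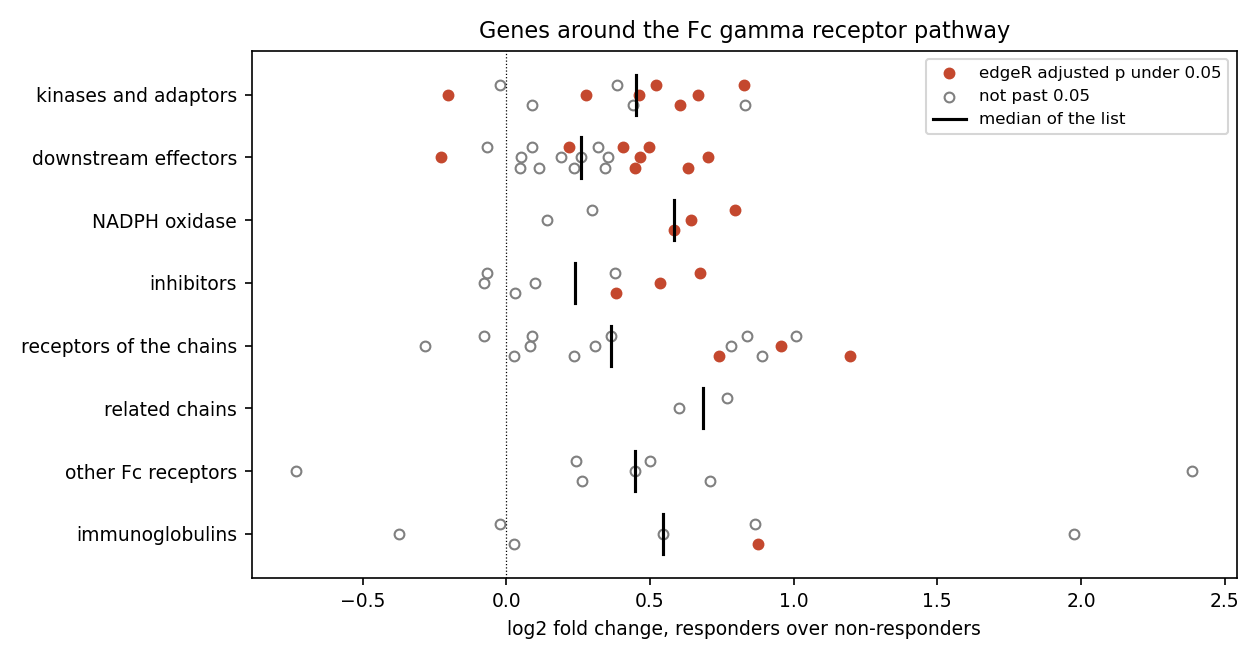
Log2 fold change of responders over non-responders for each tested gene (points) of 8 lists around the Fc gamma receptors, filled red where the edgeR adjusted p was under 0.05, with the list median as a black line. Every list median lies above 0, from 0.24 for the inhibitors to 0.68 for the related chains, and the called genes below 0 are Src and Plcg1.

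Finally, the genes whose log2 CPM followed each receptor or chain most closely over the 10 tumors were listed, 3 for each gene, as a description over tumors that share library and leukocyte content. Fcgr4 was followed by Cd74 (Pearson's r = 0.996), H2-DMb1 and H2-Aa, which encode components of MHC class II antigen presentation. For Fcgr1 they were Gm44958 (r = 0.996), Klrk1 and BC147527, and for Fcer1g they were Ptprc (r = 0.994), H2-DMa and Ctsw. Fcgr3 was followed by Cd300a (r = 0.987), Slamf1 and Ccl8, and Fcgr2b by Rsrp1 (r = 0.990), Ddhd1 and Irag2. Tyrobp was nearest to Rtl5 (r = 0.991), Neurl3 and Myo1f, Syk to Clec4a2 (r = 0.988), Psd4 and Sirpa, and Fcgrt to Rcsd1 (r = 0.963), Tmem268 and Csf1r. With the group means removed, r of the closest gene was 0.991 for Cd74 with Fcgr4, 0.984 for Ptprc with Fcer1g and 0.979 for Rcsd1 with Fcgrt.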

How the data were processed

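The response label of each sample gave its group, and accession order gave the tumor numbers, which pair nothing across groups. The authors checked reads with FastQC and estimated transcript abundance with Kallisto, which they summed to genes with tximport on mm10 (GRCm38). The values that the authors deposited are each an estimated count (expected count) of a gene, 36009 genes in all, with no depth scaling, and 45.1% of values were not whole. The annotation release and the strand and tximport settings were not given in the sources used here. The reference comes from another strain than BALB/c.

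Counts were rounded and tested in R 4.3.3 with edgeR 4.0.16 (filterByExpr with minimum count 10 and minimum total 15, TMM, two-sided quasi-likelihood test), with Benjamini-Hochberg adjustment over 16041 genes and a threshold of 0.05. Log2 CPM used a prior count of 2. Ratios within a tumor were compared by exact two-sided permutation over 210 splits (smallest p 0.00476). Ratios to Fcgr2b used counts with no pseudocount, and those to Ptprc and macrophage markers used log2 CPM. The latter were adjusted over 8 ratios as planned, and also over the same ratio of all genes, added after the data were seen. Alternatives were RLE scaling, DESeq2 1.42.0, limma-voom 3.58.1, other filters, thinned libraries, marker covariates, other markers and pseudocount, summed Fcgr2b and Fcgr3, and leaving out each tumor.

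The 8 genes and the lists were chosen with earlier results of these data known. Named genes were all 8 members, every gene of a pathway list past 0.05 (or the 2 with the smallest p where none passed) and the 3 genes most correlated with each member, and any others were named as examples after their values were seen. Some genes that the rule names are not reported here. Positions came from GENCODE M21, and promoters from RefSeq. No batch was given in the labels. All 45 pairs of libraries differed beyond sampling noise.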

Additional observations from a re-analysis of the deposited data

Results flagged for a closer look

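Single tumors stood apart from the rest of their group in 4 of the 54 sets of values examined (8 genes and 19 ratios in each group), where about 2.7 would be flagged by chance. Tyrobp in responder 5 was at 7.57 log2 CPM, with the other responders between 7.0 and 7.20. Syk relative to Ptprc in non-responder 1 was at -1.29 (log2), with the other non-responders between -1.64 and -1.62. Fcgr3 relative to the macrophage markers in non-responder 1 was at -0.82 (log2), with the others between -0.39 and -0.35. Fcgrt relative to the macrophage markers in non-responder 4 was at -0.23 (log2), with the others between -0.61 and -0.56.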

How the results depend on the processing

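Scaling, filters, thinning and summing Fcgr2b with Fcgr3 left 4 of the Fc receptor genes called, and limma-voom called 5. DESeq2 called 7 of them, with 2573 genes in all (1293 by edgeR). With Ptprc as a covariate 0 genes, 0 of the 8 and 0 pathway genes were called (845, 0 and 6 at an unadjusted p under 0.05), and with the macrophage markers 0, 0 and 0 (1010, 0 and 5). Leaving out each tumor gave 0 to 1897 genes called (0 without non-responder 4, with 4106 at an unadjusted p under 0.05), 0 to 6 of the 8 and 0 to 30 pathway genes. Under the Ptprc covariate the estimates of Fcgr4 (-0.0035), Fcgr3 (-0.0574), Fcgr2b (-0.0040) and Fcgrt (-0.0081) turned, and under the macrophage covariate those of Fcgr4 (-0.0461), Fcgr3 (-0.17), Fcgr2b (-0.13), Syk (-0.0831) and Fcgrt (-0.17), none of them called. Each covariate was itself higher in responders, and the cause was not tested. The estimates kept their direction in 142 of 151 refits of the 8 genes. Left-out tumors gave log2 ratios to Fcgr2b of 0.35 to 0.56 for Fcgr1, -0.0016 to 0.0821 for Fcgr3 and 0.84 to 1.499 for Fcgr4, whose groups do not overlap, so that leaving out a tumor cannot end the separation. Adjusted over all genes tested, the Fcgr1 (0.44) and Fcgr4 (1.23) ratios to Fcgr2b on log2 CPM did not pass, and no gene passed by that ratio. Relative to Ptprc, Fcer1g and Fcgrt passed over all genes and not over the 8 planned ratios. The same was so for Fcgr1 and Fcer1g relative to the macrophage markers. Relative to the macrophage markers, Fcgr3 (-0.0250 to 0.131) and Fcgr2b (-0.0358 to 0.131) turned without non-responder 1. With the C1q genes left out of the markers, Fcgr1, Fcer1g, Tyrobp and Syk passed over the 8 planned ratios, which they did not with all markers. The C1q genes were themselves called higher in responders, so leaving them out moved all 8 differences up alike, as for Fcgr1 from 0.49 to 0.64. No paired analysis was possible because the labels carry no replicate numbers shared between groups. Estimated counts cover Fc receptor genes well, and the number of tumors limits the precision.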
